A study of Mus musculus with 6 samples.

Results

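The plasma membrane repair genes examined here were Dysf, Myof, Anxa1, Anxa2, Anxa3, Anxa4, Anxa5, Anxa6, S100a10 and S100a11, chosen by symbol and found by Ensembl identifier as 10 of 56940 genes. They were measured by RNA sequencing of mouse lens capsules with their attached lens epithelial cells (LEC), at 72 h after the fiber cell mass had been taken out of the eye (3 libraries) or at 0 h, directly after that operation (3 libraries). All capsules were from C57BL/6 mice labelled wildtype, whose age and sex were not given. Each library pooled 5 capsules of 1 interval. The first eye of a mouse was operated on 72 h before the second and both capsules were harvested together, so the groups may share animals, and which capsules went into which pool was not given. Each library's description also holds the tag RUNX_Cre_N, and what it means was not given. The genes were chosen with the comparison of 72 h with 0 h known, so their changes between those groups are a description. Tests are given for genes outside the set, and a p-value there reflects how much these pools vary. The lists outside the set were also chosen with earlier results known, so counts of calls in them are a description.

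Cells reseal tears in the plasma membrane within moments of calcium entry. Ferlins, large membrane proteins with calcium-binding C2 domains, act in the fusion of vesicles with the wounded membrane, and dysferlin is best known from skeletal muscle, where its loss causes muscular dystrophy. Annexins bind acidic phospholipids when calcium rises and gather at the wound, and small S100 proteins hold pairs of annexins together as a bridge between membranes. Lens epithelial cells left on the capsule after cataract surgery spread, divide and change shape on a wounded surface.

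Counts in genes ranged from 8453450 to 8945397 per library at 72 h and from 11338820 to 12432688 at 0 h. Levels are given as CPM, counts scaled to a library size adjusted by the trimmed mean of M values (TMM), and genes are compared with each other only as TPM, which also divides by transcript length. All 10 lens epithelial markers listed, among them Pax6, Foxe3 and the crystallin genes Cryaa and Cryab, had counts in both groups. Their summed share of counts was 0.962% to 1.92% at 72 h and 8.07% to 8.46% at 0 h, with 9 of 10 called lower. The part of Cryaa and Cryab in that share was not separated. Log2 changes of the 10 genes ran from -2.91 to -0.09, with a median of -1.62. Of the lens fiber markers, 7 of 7 were called lower, at 0.1003% to 0.197% at 72 h and 0.771% to 0.836% at 0 h. Over all genes tested, 21.0% were called higher and 17.5% lower. Macrophage markers held 0.0209% to 0.0400% at 72 h and 0.00317% to 0.00454% at 0 h, with 10 of 12 called higher. The 9 neutrophil markers held 0.00230% to 0.00504% at 72 h and 9.33e-05% to 0.000161% at 0 h, with all 3 that could be tested called higher. With so few counts at 0 h, those genes passed the count filter through the 72 h libraries, so nothing is read from their calls. Of the neutrophil markers not tested, Ly6g, Elane and Mpo had 0 counts in every library. Keratins and other surface epithelium markers made up 0.492% of counts in 72 h replicate 3, but 0.00101% in 72 h replicate 1 and 0.0117% in 72 h replicate 2, and 0.00273% to 0.00622% at 0 h. Stromal fibroblast markers held 0.0472% to 0.0890% at 72 h and 0.0209% to 0.0272% at 0 h, with 3 of 4 tested called higher and 1 lower. Photoreceptor markers, from retina, held 0.00499% to 0.0109% at 72 h and 0.0590% to 0.146% at 0 h, with 5 of 5 called lower, and muscle markers 0.000335% to 0.00135% at 72 h and 0.00143% to 0.00311% at 0 h. The library with the high keratin share stood apart on the second principal component, which carried 14.8% of the variance.

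The start regions of the genes that changed most, and of an annexin with an S100 partner, are shown because these members were higher together at 72 h. The letters are the bases before the RefSeq transcription start on mouse build GRCm38.p6, which is not the build of the counts, ending before the first base that the GENCODE M21 annotation places in an exon. Capitals mark matches to TGAGTCA (the AP-1 element) or TGTGGT (the RUNX core). Of the 10 genes, 7 had an entry, and Anxa3, Anxa6 and S100a10 had none.
Dysf, upstream start (chr6:84008348-84008589, + strand): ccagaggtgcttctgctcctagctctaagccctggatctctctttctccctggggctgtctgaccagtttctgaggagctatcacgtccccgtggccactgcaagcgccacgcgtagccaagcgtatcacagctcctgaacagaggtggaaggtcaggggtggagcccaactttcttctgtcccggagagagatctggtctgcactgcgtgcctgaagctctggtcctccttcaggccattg
Dysf, downstream start (chr6:84019136-84019384, + strand): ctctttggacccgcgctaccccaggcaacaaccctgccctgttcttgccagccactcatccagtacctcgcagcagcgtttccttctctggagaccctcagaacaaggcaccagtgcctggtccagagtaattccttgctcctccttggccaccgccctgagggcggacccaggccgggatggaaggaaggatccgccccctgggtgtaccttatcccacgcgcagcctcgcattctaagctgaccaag
Myof (chr19:38043578-38043827, - strand): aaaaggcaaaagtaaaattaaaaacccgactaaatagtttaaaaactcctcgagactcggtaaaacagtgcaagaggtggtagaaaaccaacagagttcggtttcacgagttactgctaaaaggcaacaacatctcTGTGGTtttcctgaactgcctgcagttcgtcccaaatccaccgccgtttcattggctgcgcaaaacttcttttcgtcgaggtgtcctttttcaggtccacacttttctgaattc
Anxa2 (chr9:69453433-69453619, + strand): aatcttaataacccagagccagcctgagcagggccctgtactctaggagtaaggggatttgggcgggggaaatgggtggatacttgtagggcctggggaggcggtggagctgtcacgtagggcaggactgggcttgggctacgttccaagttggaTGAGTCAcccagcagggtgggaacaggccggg
S100a11 (chr3:93520246-93520487, + strand): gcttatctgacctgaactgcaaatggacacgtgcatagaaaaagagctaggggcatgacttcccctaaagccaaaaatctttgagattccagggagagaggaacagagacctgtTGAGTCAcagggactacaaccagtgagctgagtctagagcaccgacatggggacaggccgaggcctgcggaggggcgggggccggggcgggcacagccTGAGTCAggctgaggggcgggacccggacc
In the 250 bases before the start, read on both strands, TGAGTCA was found in 4.46% of 32851 promoters, TGTGGT in 14.05%, GGAATG (the TEAD core) in 12.6% and the CArG box of serum response factor in 1.47%. Anxa2 held 1 TGAGTCA, beginning 95 bases before its start. S100a11 held 2, beginning 136 and 38 bases before its start. Myof held 1 TGTGGT, 114 bases before its start, and Anxa1 held 1 GGAATG, 236 bases before its start. The first base of the Anxa1 window already lay in an annotated Anxa1 exon, so that match cannot be placed before the transcript with certainty. Neither Dysf window held any of these motifs, nor did those of Anxa4 and Anxa5, and no member's window held a CArG box. A match describes the letters and not a bound site.

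Of the 10 repair genes, 8 were higher at 72 h and 1 was lower by edgeR's quasi-likelihood test at an adjusted p under 0.05. Of all 15407 genes tested, 38.5% passed that threshold, 21.0% higher and 17.5% lower. The libraries of the groups did not overlap for 9 of the 10, against 53.5% of all genes tested. Because the genes were chosen from the same contrast, nothing is read from these counts. The median log2 change of the 10 was 1.09, against -0.02 over all genes tested. The spread over members was wide, with log2 changes between -1.08 and 6.49. In whole capsules, fewer cells of a type and less RNA per cell cannot be told apart.

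**Figure D1:**
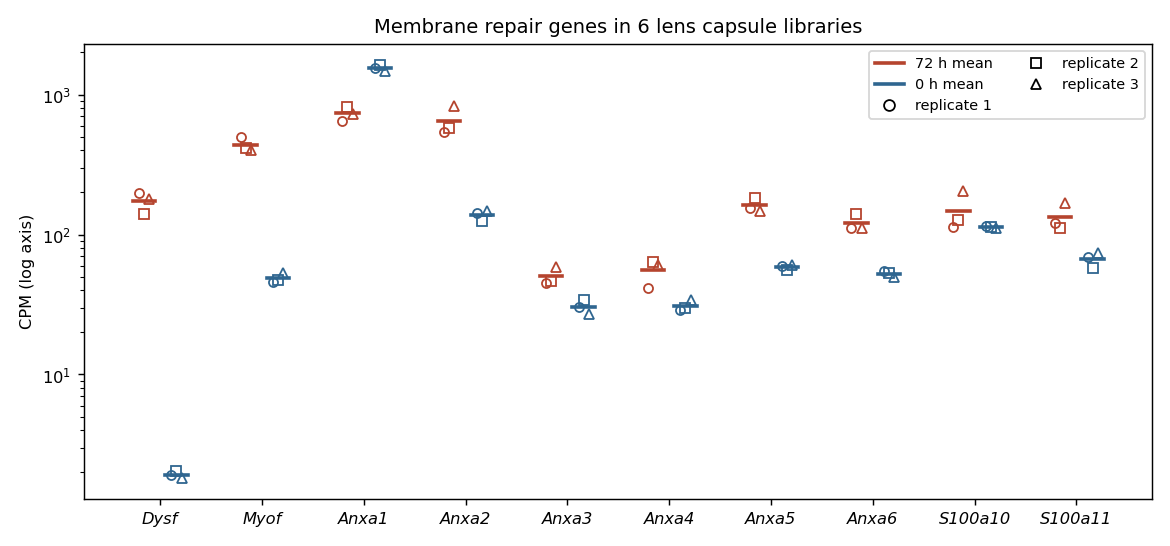
CPM of the 10 repair genes (log axis) in each of the 3 libraries at 72 h, in red, and at 0 h, in blue, with 1 point per library. Dysf and Myof lie far apart between the groups, Anxa1 lies lower at 72 h, and the S100a10 points of the groups overlap.

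Both ferlins were higher at 72 h, and Dysf changed most of all members. Dysf (ENSMUSG00000033788, chromosome 6) had 1713, 1210 and 1478 counts in the 72 h libraries, against 22, 24 and 23 counts in the 0 h libraries. On the CPM scale this was 198, 140 and 181 at 72 h, against 1.90, 2.03 and 1.81 at 0 h. The gene was close to silent at 0 h and the groups were far from overlapping. The mean was 173 ± 30.0 CPM at 72 h and 1.92 ± 0.109 CPM at 0 h (SD, n = 3 each), an 89.7-fold difference and a log2 change of 6.49 ± 0.19 (SE), which ranked 168 among all rises.

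Myof (ENSMUSG00000048612, chromosome 19), which encodes myoferlin, a ferlin of myoblast fusion and of receptor trafficking, had 499, 416 and 401 CPM at 72 h, against 45.8, 47.6 and 52.9 CPM at 0 h. Every 72 h library lay above every 0 h library, and the fold was 8.99 with a log2 change of 3.17 ± 0.12 (SE). Myof was the more abundant ferlin per length in both groups. Within a library the ratio of Dysf to Myof TPM was 0.597 ± 0.0867 at 72 h and 0.0598 ± 0.00690 at 0 h (SD, n = 3 each). Dysf thus made up 33.7% to 40.5% of the TPM of the pair at 72 h and 4.93% to 6.07% at 0 h.

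The other four ferlin genes had too few counts to be tested. Fer1l4 had 0, 6 and 49 counts at 72 h and 0 in every 0 h library. Pooled, this was 25.9-fold higher at 72 h against a floor of 3 counts over the 0 h group. Without 72 h replicate 3 it was 4.17-fold, from 6 counts that all came from 72 h replicate 2. The counting error of the 72 h counts is not covered by these folds. Otof, the ferlin of hair cell synapses, had 0, 10 and 0 counts at 72 h and 0, 0 and 3 at 0 h. Fer1l5 had 0, 3 and 0 counts at 72 h and 4, 0 and 5 at 0 h, and Fer1l6 had 0 in each 72 h library and 1, 3 and 7 at 0 h. Ferlin reads in these capsules thus came almost wholly from Dysf and Myof.

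The summed shares of macrophage, neutrophil and stromal fibroblast markers were higher in the libraries in which both ferlins were higher, and their part in the ferlin values was not tested. Other annotated genes overlap Dysf. On the opposite strand Gm33024 had 13 counts over the 72 h libraries and 0 at 0 h, and Gm15475 had 17 and 1. On the same strand Gm7498 had 35 counts at 72 h and 0 at 0 h. Without the strand setting of the counting, reads of such pairs cannot be assigned with certainty, but these genes had few counts beside the 4401 of Dysf at 72 h.

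Anxa1 was the member that was lower at 72 h, and the other five annexins of the set were higher. Anxa1 (ENSMUSG00000024659, chromosome 19), an annexin induced by glucocorticoids that is also released and acts on formyl peptide receptors, had 650, 821 and 728 CPM at 72 h, against 1541, 1635 and 1464 CPM at 0 h. All 72 h libraries lay below all 0 h libraries, and Anxa1 was 2.11-fold lower at 72 h, with a log2 change of -1.08 ± 0.11 (SE). The receptor genes were hardly detected. Fpr1 had 5, 1 and 6 counts at 72 h and 0, 5 and 0 at 0 h, Fpr2 had 9, 0 and 0 at 72 h and 0 in each 0 h library, and Fpr3 had 0 in all 6. The gene 1500015L24Rik, which overlaps Anxa1 on the opposite strand, had 33 counts over the 72 h libraries and 361 over the 0 h libraries, beside 18673 and 55684 of Anxa1.

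Anxa2 (ENSMUSG00000032231, chromosome 9), which binds actin, plasminogen and S100a10, had 540, 580 and 832 CPM at 72 h, against 142, 125 and 148 CPM at 0 h. The groups did not overlap and the fold was 4.70, with a log2 change of 2.23 ± 0.17 (SE). The highest 72 h value was that of replicate 3, and without it the log2 change was 2.03. Mir3109, which overlaps Anxa2 on the same strand, had 106 counts over the 72 h libraries and 24 over the 0 h libraries. Gm16144, on the opposite strand, had 3 and 7. Anxa5 (ENSMUSG00000027712, chromosome 3), which forms a lattice on exposed phosphatidylserine, had 155, 182 and 148 CPM at 72 h, against 60.0, 56.2 and 60.5 CPM at 0 h, a log2 change of 1.46 ± 0.11. Anxa6 (ENSMUSG00000018340, chromosome 11), an annexin of the repair cap in muscle, had 111, 140 and 111 CPM at 72 h, against 54.8, 53.5 and 49.5 CPM at 0 h, a log2 change of 1.20 ± 0.13. For both, every 72 h library lay above every 0 h library, and the gap was wide beside the spread within each group.

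Anxa3 and Anxa4 showed the smallest differences among the annexins of the set. Anxa4 (ENSMUSG00000029994, chromosome 6), which curves membrane edges, had 41.4, 64.1 and 60.4 CPM at 72 h, against 29.1, 30.0 and 33.8 CPM at 0 h, a log2 change of 0.84 ± 0.18 (SE). Anxa3 (ENSMUSG00000029484, chromosome 5), an annexin abundant in neutrophils, had 45.4, 46.9 and 59.1 CPM at 72 h, against 30.4, 34.1 and 26.9 CPM at 0 h, a log2 change of 0.73 ± 0.16. Neither overlapped between the groups. Gm42603, which overlaps Anxa3 on the same strand, had 62 counts over the 72 h libraries and 22 over the 0 h libraries. Gm44036, which overlaps Anxa4 on the opposite strand, had 0 and 2. Without 72 h replicate 3 the log2 change was 0.78 for Anxa4 and 0.61 for Anxa3.

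The sum over annexin genes overlapped between the groups in CPM but not in TPM. The shares of Anxa1, Anxa2, Anxa5 and Anxa6 did not overlap, while that of Anxa11 did. Summed annexin levels were 1903 ± 263 CPM at 72 h and 1935 ± 73.8 CPM at 0 h (SD, n = 3 each). In TPM, which moves with abundant RNAs, the sum was 1744 to 2016 at 72 h and 2116 to 2234 at 0 h. The 5 annexins from Anxa2 to Anxa6 together had 1039 ± 160 CPM at 72 h and 311 ± 10.9 CPM at 0 h. Per length, Anxa1 held 41.5%, 44.7% and 35.8% of annexin TPM in the 72 h libraries, against 81.3%, 83.0% and 80.5% in the 0 h libraries. Anxa2 held 26.8%, 24.6% and 31.9% at 72 h, against 5.84%, 4.96% and 6.36% at 0 h. Anxa5 held 14.8% ± 2.46 at 72 h and 5.11% ± 0.394 at 0 h, and Anxa6 6.68% ± 1.14 and 2.76% ± 0.0999. At 0 h annexin transcripts were thus mostly Anxa1, and at 72 h they were spread over Anxa1, Anxa2 and Anxa5. In the same 72 h libraries the lens epithelium marker share, which includes Cryaa and Cryab, was lower, at 1.34% ± 0.506 against 8.27% ± 0.193 at 0 h. So was that of lens fiber, at 0.142% ± 0.0493 against 0.793% ± 0.0371 (SD, n = 3 each). Macrophage, neutrophil and stromal fibroblast shares were higher there, and the part of none of these in the annexin levels was tested.

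**Figure D2:**
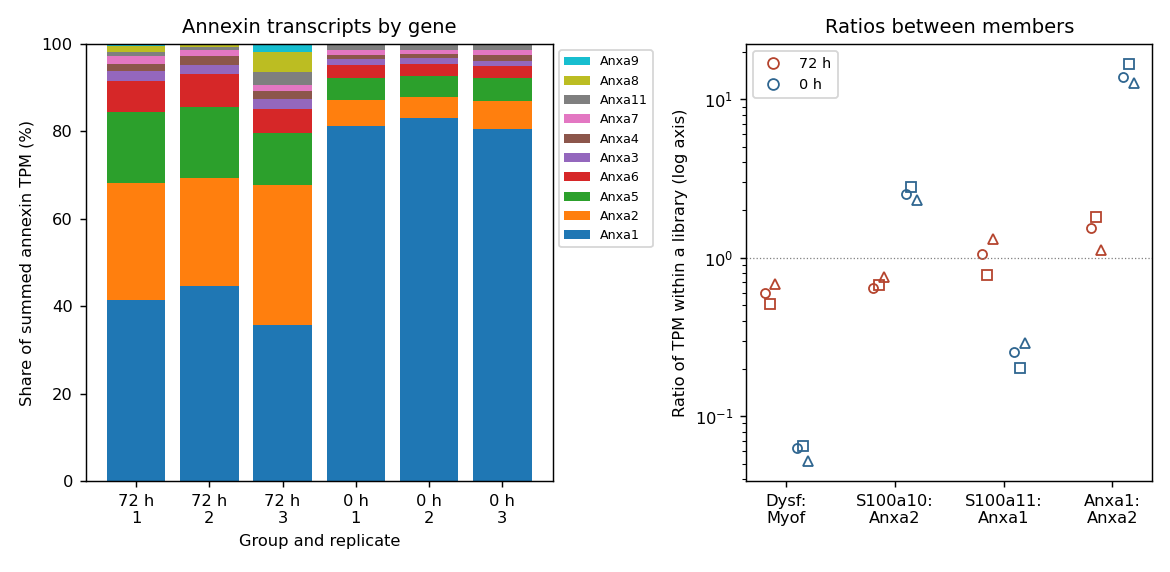
Left, share of summed annexin TPM (%) held by each annexin gene in each library, 72 h libraries left of 0 h libraries. Right, ratios of TPM between pairs of members within each library (log axis), with 1 symbol per replicate in red for 72 h and blue for 0 h. Anxa1 holds under 45% of annexin TPM in the 72 h libraries and over 80% in the 0 h libraries, and none of the 4 ratios overlaps between the groups.

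The S100 partners differed from their annexins. S100a11 (ENSMUSG00000027907, chromosome 3), which binds Anxa1 and Anxa2, had 120, 112 and 167 CPM at 72 h, against 69.2, 57.6 and 74.2 CPM at 0 h, a log2 change of 0.99 ± 0.17 (SE; 0.80 without 72 h replicate 3). The groups did not overlap. S100a10 (ENSMUSG00000041959, chromosome 3), also called p11, the partner that carries Anxa2 to the membrane, had 112.5, 127.5 and 204.8 CPM at 72 h, against 115.9, 113.7 and 111.4 CPM at 0 h. Here 1 of the 72 h libraries lay among those of 0 h, and the log2 change was 0.38 ± 0.20. Without 72 h replicate 3 it was 0.09 ± 0.10.

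The ratios of S100 partners to their annexins differed between the groups. The ratio of S100a10 to Anxa2 TPM was 0.642, 0.677 and 0.758 at 72 h, against 2.52, 2.80 and 2.31 at 0 h. For S100a11, which binds both annexins, the direction depended on the annexin. Its ratio to Anxa1 TPM was 1.05, 0.778 and 1.31 at 72 h, against 0.256, 0.201 and 0.289 at 0 h, and its ratio to Anxa2 TPM was 1.62, 1.41 and 1.47 at 72 h, against 3.56, 3.36 and 3.65 at 0 h. The ratio of Anxa1 to Anxa2 TPM was 1.49 ± 0.349 at 72 h and 14.4 ± 2.09 at 0 h (SD, n = 3 each). These ratios are of transcripts, and they hold within each library.

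Ordered by TPM, which sets genes side by side within a group, S100a11 at 768 and Anxa1 at 755 led at 72 h and did not differ beyond their spread. Anxa2 followed at 513, then S100a10 at 357 and Anxa5 at 275, whose libraries overlapped. Anxa6 at 124 and Myof at 105 overlapped too, Dysf lay at 62.2, and Anxa3 at 41.0 overlapped Anxa4 at 35.5. At 0 h Anxa1 led at 1784, before S100a11 at 441 and S100a10 at 315. Anxa2 at 125 and Anxa5 at 111 overlapped, and Anxa6 at 60.3, Anxa3 at 28.1, Anxa4 at 22.4, Myof at 13.01 and Dysf at 0.773 followed, each apart from the next. The ferlins thus stood last of the 10 at 0 h and above Anxa3 and Anxa4 at 72 h.

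Some of these levels differed in a single library. In 72 h replicate 3, on the log2(CPM + 1) scale, S100a10 was 0.77, Anxa2 0.57 and S100a11 0.53 above the mean of the other two 72 h libraries. The other seven repair genes differed by between -0.18 and 0.35. Over all genes tested, the 5th to 95th percentile of that difference was -1.11 to 1.17. Surface epithelium markers were high in the same library, and their part in these values was not tested.

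**Figure D3:**
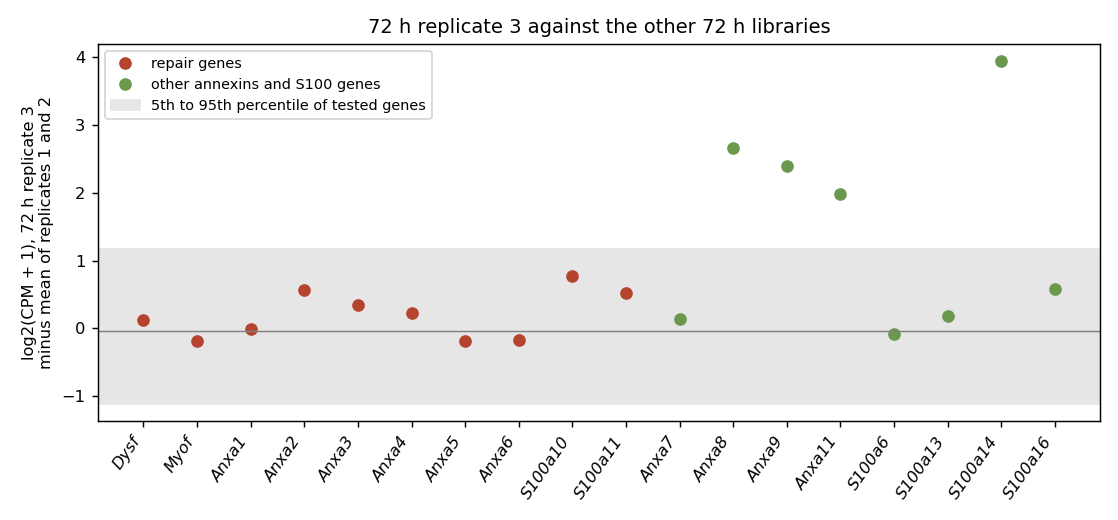
Difference on the log2(CPM + 1) scale between 72 h replicate 3 and the mean of 72 h replicates 1 and 2, for the repair genes (red) and for other genes (green). The latter are Anxa7, Anxa8, Anxa9, Anxa11, S100a6, S100a13, S100a14 and S100a16. S100a14 had too few counts to be tested and was picked after its values were seen, and not every tested S100 gene is shown. The grey band is the 5th to 95th percentile of all genes tested, which holds all 10 repair genes and leaves out Anxa8, Anxa9, Anxa11 and S100a14.

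Of the other six annexins, 4 could be tested, and 1 was called higher, where 21.0% of all genes tested were higher. The count does not set these annexins apart. Anxa8, an annexin of stratified epithelia, had 12.5, 5.89 and 59.8 CPM at 72 h, against 1.38, 0.762 and 0 CPM at 0 h. It passed the count filter through the 72 h libraries, so nothing is read from its call. Its log2 change was 5.19 ± 1.40 (SE; adjusted p = 0.0377), and the adjusted p lay between 0.0029 and 0.267 under 15 other settings, of which 8 called it. The call was lost without 72 h replicate 1 (log2 change 5.51, adjusted p = 0.0621) and without 0 h replicate 1 (6.07, adjusted p = 0.0970), 2 (5.23, adjusted p = 0.135) or 3 (4.58, adjusted p = 0.0830). Anxa9 had 6.25, 2.77 and 26.4 CPM at 72 h, against 2.42, 1.19 and 3.31 CPM at 0 h. Its log2 change of 2.35 ± 0.83 was not called (adjusted p = 0.0579), but leaving out 72 h replicate 2 (2.81, adjusted p = 0.0117) or using DESeq2 (2.38, adjusted p = 0.0043) gave a call.

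Anxa11, which tethers RNA granules to lysosomes, had 21.8, 20.0 and 85.7 CPM at 72 h, against 31.9, 32.7 and 30.3 CPM at 0 h. With all libraries it was not called (0.42 ± 0.62, adjusted p = 0.640), and without 72 h replicate 3 it was called lower (-0.59 ± 0.17, adjusted p = 0.0146). Anxa7, a widely expressed annexin, was not called (0.29 ± 0.14, adjusted p = 0.130). Anxa10 and Anxa13 had 0 counts in every library. Anxa8, Anxa9 and Anxa11 were each highest in 72 h replicate 3, the library with the high keratin share, by 2.66, 2.39 and 1.99 on the log2(CPM + 1) scale, and the part of that share was not tested. Reads of Anxa9 may also include those of Mindy1, which overlaps it on the opposite strand and had 473 counts over the 72 h libraries and 538 over the 0 h libraries.

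Of 14 other S100 genes, 5 were tested, 3 were called higher and none lower, where 21.0% of all genes tested were higher and 17.5% lower. With so few genes tested, the count does not set the list apart. S100a6, or calcyclin, which binds several annexins, had 362, 394 and 357 CPM at 72 h, against 213, 185 and 202 CPM at 0 h (log2 change 0.89 ± 0.10, adjusted p = 8.3e-05). S100a16 was higher by 0.86 ± 0.20 (adjusted p = 0.0077). S100a13, which takes part in the release of fibroblast growth factor 1, was higher by 1.37 ± 0.39 (adjusted p = 0.0198), with calls lost without 72 h replicate 2 (1.31, adjusted p = 0.0503) and without 0 h replicate 1 (1.14, adjusted p = 0.0857) or 3 (1.35, adjusted p = 0.0749). Without 72 h replicate 2, 5 members of this list were called. Among those with too few counts to be tested, named after their values were seen, S100a8 had 31, 2 and 14 counts at 72 h and 1, 0 and 0 at 0 h, and S100a14 had 10, 1 and 187 at 72 h and 4, 0 and 0 at 0 h.

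**Figure D4:**
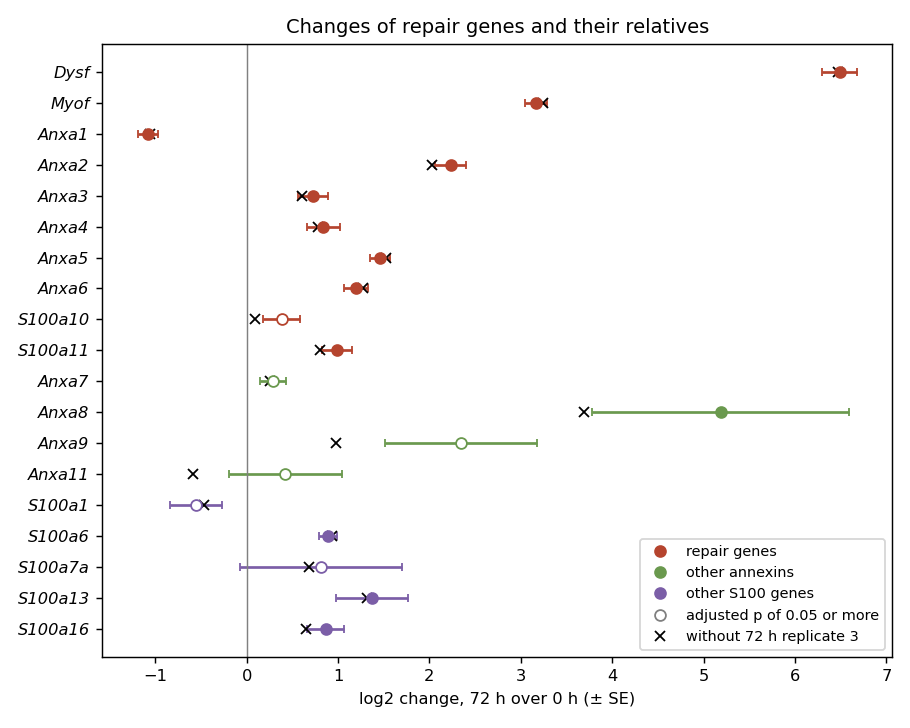
Log2 change of 72 h over 0 h (points, with bars of ± 1 SE) for the repair genes and for the other annexin and S100 genes tested, filled where the adjusted p was under 0.05. Crosses are the log2 changes without 72 h replicate 3. Dysf lies at 6.49 and Anxa1 at -1.08, and the cross of Anxa11 lies on the other side of 0 from its point.

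Genes that act beside dysferlin and the annexins at the cell surface were called in both directions. Of 18 listed, 17 were found and 16 tested, of which 9 were higher, 2 lower and 5 not called, where 21.0% of all genes tested were higher and 17.5% lower. The median log2 change of the list was 0.65. The list was chosen with earlier results of these data known, so nothing is read from these counts. Among those higher were caveola genes, whose membrane pits can flatten under strain. Cavin3 had 141, 169 and 164 CPM at 72 h, against 28.0, 24.6 and 30.7 CPM at 0 h (log2 change 2.51 ± 0.13, adjusted p = 7.3e-07). Cav1, the main caveolin of non-muscle cells, had 16.4, 9.93 and 12.6 CPM at 72 h, against 1.12, 0.254 and 0.316 CPM at 0 h (4.51 ± 0.57, adjusted p = 0.00021). Having few counts at 0 h, Cav1 passed the count filter through the 72 h libraries, so nothing is read from its call. Cav2, its partner caveolin, was higher by 3.11 ± 0.47 (adjusted p = 6.0e-04), and was named after its values were seen.

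A coat protein gene of the same structure moved the other way. Cavin2 had 7.41, 11.8 and 3.79 CPM at 72 h, against 96.5, 79.6 and 95.2 CPM at 0 h, and was 11.8-fold lower (-3.56 ± 0.36, adjusted p = 0.00018). Of the EHD proteins, which shape membrane necks and recycle receptors, Ehd4 had 28.1, 28.2 and 27.4 CPM at 72 h, against 7.78, 6.52 and 6.78 CPM at 0 h (1.99 ± 0.21, adjusted p = 5.5e-05). Ehd3 was lower (-0.92 ± 0.29, adjusted p = 0.0300), but not when 72 h replicate 1 (-0.87, adjusted p = 0.0727), 0 h replicate 2 (-0.98, adjusted p = 0.0712) or 0 h replicate 3 (-0.69, adjusted p = 0.164) was left out. A further pair of genes was named after their values were seen. Ahnak, a giant scaffold that binds dysferlin and the pair of Anxa2 and S100a10, had 2892 ± 442 CPM at 72 h and 1887 ± 101 CPM at 0 h (SD, n = 3 each; 0.62 ± 0.12, adjusted p = 0.0028). Trim72, or MG53, which gathers vesicles at wounds in muscle, had 25 counts over the 72 h libraries, 19 over the 0 h libraries and no call.

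Other arms of membrane repair held calls in both directions. Of 16 genes of the ESCRT machinery, which pinches off damaged membrane, 4 were higher and 1 lower, with a median log2 change of 0.21. That is 5 of 16 called where 38.5% of all genes tested were called, so the count does not set the list apart. Pdcd6ip (ALIX), which recruits the scission complex, was higher by 0.59 ± 0.13 (SE; adjusted p = 0.0046), with a level of 218 ± 34.2 CPM in 72 h libraries and 145 ± 9.30 CPM in 0 h libraries (SD, n = 3 each). Chmp1b (0.97 ± 0.33, adjusted p = 0.0394) and Ist1 (0.37 ± 0.13, adjusted p = 0.0443) were higher and Chmp5 (-0.40 ± 0.12, adjusted p = 0.0261) was lower, and all 3 encode subunits of the scission complex. The Chmp1b call was lost without 72 h replicate 3 (0.48, adjusted p = 0.113) and without 0 h replicate 1, 2 or 3 (adjusted p = 0.113, 0.0836 and 0.137). The Ist1 call was lost without 72 h replicate 2 (adjusted p = 0.0892) and without 0 h replicate 1, 2 or 3 (adjusted p = 0.0961, 0.117 and 0.162), and the Chmp5 call without 72 h replicate 1 (adjusted p = 0.0571) and without 0 h replicate 1, 2 or 3 (adjusted p = 0.0936, 0.0685 and 0.0640). The list then held 2, 1 and 1 calls without 0 h replicate 1, 2 and 3.

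Of 13 genes of lysosome exocytosis, by which cells add membrane and release enzymes at a wound, 12 were found and tested, with 4 higher, 2 lower and a median log2 change of 0.15, beside the same 38.5% of all genes tested. The sphingolipid enzymes of this arm differed in direction. Asah1, acid ceramidase, had 61.4, 65.2 and 48.9 CPM at 72 h, against 29.1, 26.2 and 31.9 CPM at 0 h (log2 change 1.01 ± 0.16, adjusted p = 0.00076). Smpd1, acid sphingomyelinase, had 25.5, 25.8 and 17.5 CPM at 72 h, against 51.6, 41.1 and 42.8 CPM at 0 h (-0.98 ± 0.19, adjusted p = 0.0028). The cathepsins were split as well. Ctsd, cathepsin D, was higher (1.57 ± 0.30, adjusted p = 0.0069, and 0.0508 with no filter on low counts) and Ctsl, cathepsin L, was lower (-0.84 ± 0.12, adjusted p = 0.00049). Stx4a, a syntaxin of the plasma membrane, was higher by 0.85 ± 0.14 (adjusted p = 0.00098).

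Without 72 h replicate 3, 41.6% of genes were called, 21.9% higher and 19.6% lower, and the repair genes again had 8 higher and 1 lower. The partner list then held 10 higher and 3 lower calls, the ESCRT list 3 and 3, and the lysosome list 5 and 2. Macrophage markers, which were higher at 72 h, come from a cell type rich in lysosomes and annexins, and their part in these lists was not tested.

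**Figure D5:**
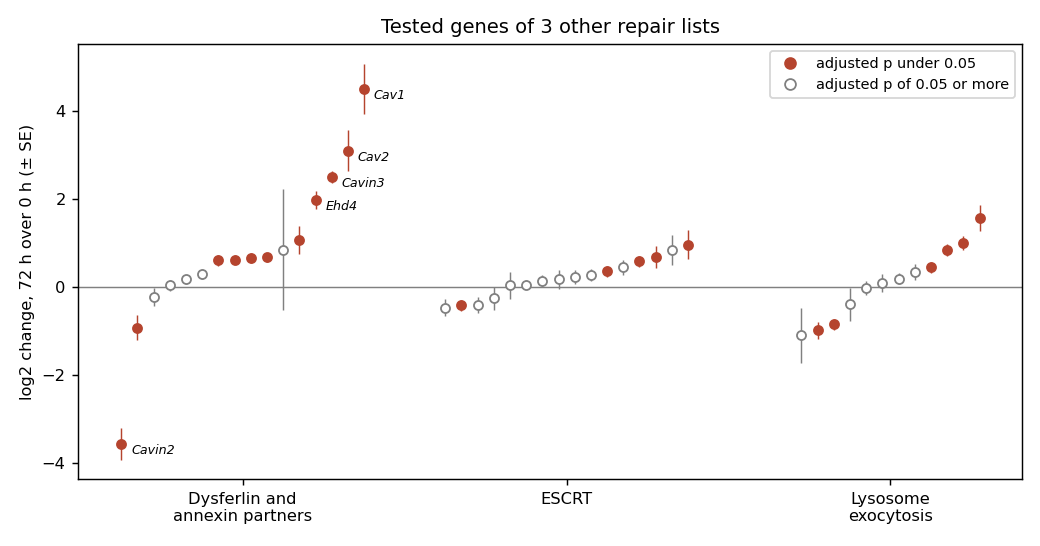
Log2 change of 72 h over 0 h (points, with bars of ± 1 SE) for the tested genes of 3 repair lists, ordered by value within a list and filled where the adjusted p was under 0.05. The partner list reaches from Cavin2 at -3.56 to Cav1 at 4.51, while every ESCRT gene lies within 1 log2 unit of 0.

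For the repair genes other than Anxa6, the gene with the closest pattern over the 6 libraries was found by Pearson's r of log2(CPM + 1) among 9298 genes whose mean was 10 CPM or more. Dysf was closest to the tropomyosin gene Tpm3 (r = 0.9995), Myof to Phldb2 (0.9996), Anxa1 to Hdhd2 (0.9993), Anxa2 to Nudt18 (0.9994) and Anxa3 to Crebzf (0.9956). Anxa4 was closest to Trpm7 (0.9951), Anxa5 to Pfn1, which encodes profilin (0.9983), S100a10 to Kdm5b (0.9968) and S100a11 to Itpr2 (0.9986). With groups that stand far apart such values are common. As many as 310 genes exceeded 0.99 with Dysf and 313 with Myof, against 7 with Anxa3 and 5 each with Anxa4 and S100a10. The likeness is one of pattern and not of size, since Tpm3 changed by 2.09 on the log2 scale.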

How the data were processed

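Per the labels' protocols, RNA came from pooled lens capsules (Qiagen RNeasy) and library preparation used Takara SMARTer Stranded Pico v2. The authors deposited 1 file of counts per library, whole numbers per Ensembl gene with no normalization. The submitters' processing notes name HISAT2, HTSeq, edgeR and the build GRCm39. The sources used here did not give versions, the annotation release, the strand setting or the treatment of reads with several matches. Counts of overlapping genes and of genes with processed copies are therefore uncertain. The 5 lines of reads assigned to no gene made up 49.7% ± 1.86 of a 72 h library and 44.0% ± 1.82 of a 0 h library (SD, n = 3 each) and were left out.

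Symbols came from GENCODE M21 (GRCm38) by Ensembl identifier, which matched 51947 of 56940. Genes were kept by edgeR's filterByExpr (minimum count 10, minimum total 15), which left 15407, normalized by TMM and tested with edgeR's quasi-likelihood test (edgeR 4.0.16, R 4.3.3), two-sided, robust, with time as the sole term, p-values adjusted by Benjamini-Hochberg over all genes tested. Called means an adjusted p under 0.05. Log2 changes (72 h over 0 h) used a prior count of 0.125, and SE is the log2 change over the square root of F. TPM used exon lengths from GENCODE M21, which may differ from those of the authors' annotation. Apart from the annexin sum, TPM is compared only within libraries, since it moves with abundant RNAs. Pairs of genes were called apart where their libraries did not overlap. Folds against 0 counts use a floor of 3 counts over the 0 h group and the observed counts at 72 h. The floor allows only for the counting error of the 0 h group. It treats reads as independent molecules, which they are not, so even that error is not fully covered. Group differences in marker shares were put to an exact permutation test, two-sided, whose smallest p with 3 libraries against 3 is 0.1. This exact permutation test gave p = 0.1 for lens epithelium, lens fiber, macrophage, neutrophil, stromal fibroblast, photoreceptor and muscle markers, p = 0.4 for surface epithelium, p = 0.5 for endothelium and p = 0.8 for pigment cell markers. The fitting steps were tested on simulated data with the same dispersion for every gene and library. That test did not cover the unequal spread seen here, with a median coefficient of variation of 24.7% at 72 h and 13.8% at 0 h.

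The repair genes and all lists were chosen with earlier results of these data known. Named were all repair genes, the other annexins and ferlins with at least 1 count, the 3 called genes of smallest p in each direction from every other list, and for each repair gene the gene with the closest pattern. The closest pattern to Anxa6 is not reported here. Ahnak2 and Vamp7 of the lists, and Lim2 of the markers, were not analysed here. Alternatives were other scalings, filters, tools (DESeq2 1.42.0, limma 3.58.1), a replicate block and leaving out each library.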

Additional observations from a re-analysis of the deposited data

How the results depend on the processing

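As a description, since the repair genes were chosen from this contrast, the same 9 were past the threshold and S100a10 was not under all 15 other settings, 6 of which each left out 1 library. Leaving out each library in turn gave log2 changes of 6.37 to 6.62 for Dysf, 3.06 to 3.24 for Myof, -1.17 to -1.005 for Anxa1, 2.03 to 2.34 for Anxa2, 0.804 to 1.097 for S100a11 and 0.09 to 0.54 for S100a10. The number of other annexins called, 1 in the report, was 0 with no filter or limma voom, 2 with DESeq2, and 0 to 2 when 1 library was left out. The number of other S100 genes called, 3, was 5 with no filter and 3 to 5 when 1 library was left out. The number of ESCRT genes called, 5, was 2 with upper quartile scaling, 3 with library size alone and 1 to 6 when 1 library was left out. Anxa11 was reversed without 72 h replicate 3, in a range of -0.59 to 0.76 when 1 library was left out. Differences in marker shares of cell types at very low levels also changed sign, that of endothelium ranging from -6.3e-05 to 0.00050 percentage points and that of pigment cells from -0.00171 to 0.00075 (0.000455 without 0 h replicate 2) when 1 library was left out. Of the alternative values of named genes outside the repair set, 277 kept their side of the threshold, 34 lost their call, 3 gained one and 1 was the reversal of Anxa11. Over all genes, 2511 to 3646 were called higher and 1877 to 3265 lower when 1 library was left out, against 3230 and 2700 with all, and the causes were not tested.

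No sign of pairing by replicate number was seen. Deviations of same-numbered libraries from their group means correlated at -0.037, 0.059 and -0.012, and not every library correlated best with its own number. With 3 libraries per group, each a pool of 5 capsules, these values cannot tell whether the groups share animals. With the replicate block 2921 genes were higher and 2507 lower, 2 ESCRT genes were called, Anxa9 gained a call (1.91, adjusted p = 0.0148), and those of Anxa8 (4.57, adjusted p = 0.176), Ehd3 (-0.90, adjusted p = 0.0554), Chmp1b (adjusted p = 0.0703), Ist1 (adjusted p = 0.0894) and Chmp5 (adjusted p = 0.0527) were lost, by edgeR's quasi-likelihood test. Counting depth limits the genes near 0, such as the lesser ferlins and the formyl peptide receptors.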
